A study of Homo sapiens with 16 samples.

Results

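The genes followed here are the 9 listed genes of the major histocompatibility complex (MHC) class I presentation pathway: the heavy chain genes HLA-B, HLA-C, HLA-E and HLA-F, the light chain gene B2M, the peptide transporter genes TAP1 and TAP2, the tapasin gene TAPBP and the transactivator gene NLRC5. They were chosen by name, with earlier results of these data known, and all 9 were found among the 18332 genes of the deposited expression table. The study asked how diabetes and high glucose affect breast cancer, in patient tumors, mouse xenografts and cultured lines. The part used here exposed estrogen receptor-negative (ER-negative) breast cancer cells to a diabetes-like glucose level. RNA sequencing covered 2 human lines, both established from metastatic breast cancers and labelled ER negative. One was MDA-MB-231 and the other MDA-MB-468. Each line was grown in low glucose (5 mM) or high glucose (25 mM) for 48 h, with no other agent named in the labels, and each of the 4 groups held 4 replicates. The study's general methods describe the glucose exposure as serum-free. For routine growth they name DMEM for MDA-MB-231 and RPMI for MDA-MB-468, so line and growth medium cannot be told apart. Each line stands for itself as 1 line, the cells grew alone in flasks without immune cells, and the labels name no osmotic control for these libraries, so glucose and osmolarity cannot be told apart. The labels do not say how the replicates were separated, so the p-values measure the spread between these libraries, which may be technical.

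MHC class I molecules display short peptides from inside the cell to CD8+ T cells and to inhibitory receptors of natural killer cells. Peptides cut by the proteasome are pumped into the endoplasmic reticulum by the TAP1-TAP2 transporter, where tapasin holds an empty heavy chain and its light chain, β2-microglobulin, beside the transporter until a peptide fits. Transcription of most of these genes is driven by NLRC5, which works on a promoter module bound by RFX, CREB/ATF and NF-Y proteins, and by interferon, whose signal reaches an interferon-stimulated response element (ISRE) through factors such as IRF1.

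Promoter sequence was held by the RefSeq table (build GRCh38.p14) for 7 of the 9 genes. The 200 bases before each RefSeq start are shown because they carry the short motifs to which these genes are known to answer. They run 5′ to 3′ on the strand of the gene. Capitals mark 4 motifs read on either strand, so a motif on the opposite strand appears as its reverse complement: CCAAT of NF-Y, the CREB/ATF core TGACG, the short ISRE core TTTCNNTT, and the full ISRE core, which is the short core followed directly by TC and so overlaps it.
HLA-B, chr6:31357180-31357379, minus strand: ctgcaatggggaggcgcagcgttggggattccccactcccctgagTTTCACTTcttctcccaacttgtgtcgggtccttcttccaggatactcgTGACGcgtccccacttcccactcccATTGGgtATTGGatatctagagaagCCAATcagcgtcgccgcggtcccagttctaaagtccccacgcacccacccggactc
HLA-C, chr6:31272093-31272292, minus strand: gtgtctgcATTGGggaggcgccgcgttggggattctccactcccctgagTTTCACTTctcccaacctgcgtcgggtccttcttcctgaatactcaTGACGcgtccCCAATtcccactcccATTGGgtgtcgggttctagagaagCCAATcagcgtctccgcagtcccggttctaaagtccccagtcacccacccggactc
HLA-F, chr6:29723234-29723433, plus strand: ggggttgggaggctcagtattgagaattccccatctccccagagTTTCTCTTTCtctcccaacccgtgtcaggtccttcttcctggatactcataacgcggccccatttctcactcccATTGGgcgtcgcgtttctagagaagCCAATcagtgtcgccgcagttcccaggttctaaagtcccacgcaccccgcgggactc
B2M, chr15:44711317-44711516, plus strand: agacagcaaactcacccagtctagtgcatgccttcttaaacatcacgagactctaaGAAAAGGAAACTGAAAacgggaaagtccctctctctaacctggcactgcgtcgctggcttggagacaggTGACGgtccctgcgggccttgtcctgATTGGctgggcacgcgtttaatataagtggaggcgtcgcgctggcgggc
TAP1, chr6:32853705-32853904, minus strand: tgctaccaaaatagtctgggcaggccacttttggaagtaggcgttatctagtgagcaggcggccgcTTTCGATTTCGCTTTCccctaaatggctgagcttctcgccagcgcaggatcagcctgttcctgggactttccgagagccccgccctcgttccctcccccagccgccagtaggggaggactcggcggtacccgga
TAP2, chr6:32838740-32838939, minus strand: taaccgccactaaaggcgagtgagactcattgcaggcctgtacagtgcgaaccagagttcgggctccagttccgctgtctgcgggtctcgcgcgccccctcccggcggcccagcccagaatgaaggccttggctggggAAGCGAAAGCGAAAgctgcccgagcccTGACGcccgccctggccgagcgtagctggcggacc
TAPBP, chr6:33314079-33314278, minus strand: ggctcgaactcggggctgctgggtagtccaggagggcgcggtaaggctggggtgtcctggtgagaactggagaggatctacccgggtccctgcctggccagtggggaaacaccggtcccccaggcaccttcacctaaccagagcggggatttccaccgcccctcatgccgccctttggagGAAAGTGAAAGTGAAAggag

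Within the 250 bases searched before the start, on both strands, HLA-B and HLA-C shared one arrangement. In HLA-B the TGACG core began at -106, CCAAT matches began at -81, -74 and -56, and a short ISRE core began at -155. In HLA-C the TGACG core began at -105, CCAAT matches began at -192, -95, -80 and -56, and the short ISRE core began at -151. HLA-F carried CCAAT matches at -82 and -57 and a full ISRE core at -156, with no TGACG match in its window. B2M held 1 CCAAT match at -49, 1 TGACG match at -75 and 2 overlapping full ISRE cores at -144 and -138. The TAP1 sequence shown had 2 full ISRE cores at -134 and -128 and a CCAAT match at -249, before the printed stretch. A 2nd RefSeq entry for TAP1 had no match to any of the motifs. TAP2 had a full ISRE core at -58 and a TGACG match at -35, and TAPBP had 2 full ISRE cores at -20 and -14. Among all 35116 RefSeq promoters searched over the same length, CCAAT was present in 32.0%, TGACG in 21.2%, the full ISRE core in 3.02% and the short ISRE core in 20.3%. Genes of the pathway that were not called in MDA-MB-468 also held such matches. PSMB10 had a full ISRE core at -21 and short cores at -76 and -19, PSMB9 had CCAAT at -243 and TGACG at -144, and of the 2 RefSeq entries of PSMB8, 1 had TGACG at -69. These matches describe letters and are not evidence of binding.

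Of the 9 genes, 7 lie on chromosome 6. On build GRCh37, to which the study's methods say the reads were aligned, HLA-F spans chr6:29690552-29706305 on the plus strand, HLA-E chr6:30457286-30461971 on the plus strand, HLA-C chr6:31236526-31239907 on the minus strand and HLA-B chr6:31321649-31334844 on the minus strand. Further along, TAP2 spans chr6:32789610-32806516, TAP1 chr6:32812986-32821593 and TAPBP chr6:33267471-33282061, all on the minus strand. B2M lies at chr15:45003556-45011049 and NLRC5 at chr16:57023397-57117443, both on the plus strand. Sequence shared with other genes could split reads. The share of 50-base stretches of the canonical transcript also found in another gene was 6.77% for HLA-C, 6.16% for HLA-E, 2.56% for HLA-B, 1.89% for HLA-F, 7.09% for TAPBP, 1.18% for TAP1 and 35.3% for TAP2, and none was shared for B2M and NLRC5. The TAP2 share came with an overlapping annotated gene on the same strand, ENSG00000250264. HLA-F overlaps the antisense gene HLA-F-AS1, and TAP1 overlaps PSMB9 and PSMB8-AS1 on the opposite strand. Use of strand in counting is not given in the sources used here, so reads from such partners cannot be told apart. How reads from each line's own HLA alleles aligned to the reference was not analysed here.

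Values are normalized read counts, that is, reads per gene divided by 1 size factor for each library. The libraries held between 14094597 and 24425916 reads assigned to genes, so that 3 reads, the limit below which a gene was treated as not detected, corresponded to 0.123 to 0.213 CPM (reads scaled to the library total). The line labels were checked with marker genes. Of 4 mesenchymal markers chosen for MDA-MB-231, 3 were lower in low-glucose MDA-MB-468 libraries and CD44 was higher (limma, adjusted p under 0.05). CD44 averaged 25508 in those libraries, against 17995 for low-glucose MDA-MB-231. All 4 epithelial markers chosen for MDA-MB-468 were higher there in low glucose. VIM, the mesenchymal filament gene, lay between 89664 and 99379 in the MDA-MB-231 libraries and between 15.8 and 35.4 in the MDA-MB-468 libraries, whereas CDH1, which encodes E-cadherin, lay between 4.29 and 10.7 in the former and between 1941 and 2139 in the latter. The estrogen receptor gene ESR1 was at most 2.92 in MDA-MB-231 and lay between 38.2 and 69.7 in MDA-MB-468.

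Next, the levels of the 9 genes were compared with one another after division by transcript length. B2M was the highest in all 4 groups, at 10526 ± 484 normalized reads per kb (SD, n = 4) in MDA-MB-231 in low glucose and 8975 ± 416 in MDA-MB-468 in low glucose. After B2M, the order in MDA-MB-231 in low glucose was HLA-B at 2679 reads per kb, HLA-E at 2619, TAPBP at 2081, HLA-C at 1802, TAP1 at 382, TAP2 at 279.7, NLRC5 at 41.5 and HLA-F at 8.91. HLA-B and HLA-E overlapped between libraries in both MDA-MB-231 groups and have no clear order, while each other pair of neighbours was separated in all libraries. The order was different in MDA-MB-468 in low glucose, where HLA-C stood 2nd at 3285 reads per kb, followed by HLA-B at 2939, HLA-E at 1657, TAPBP at 1571, TAP1 at 573, HLA-F at 482, TAP2 at 328 and NLRC5 at 55.4. HLA-F, the lowest of the 9 in MDA-MB-231, stood between the transporter genes in the other line. With high glucose the order of the means in MDA-MB-468 was the same, but HLA-F at 297 and TAP2 at 256 reads per kb then overlapped.

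**Figure D1:**
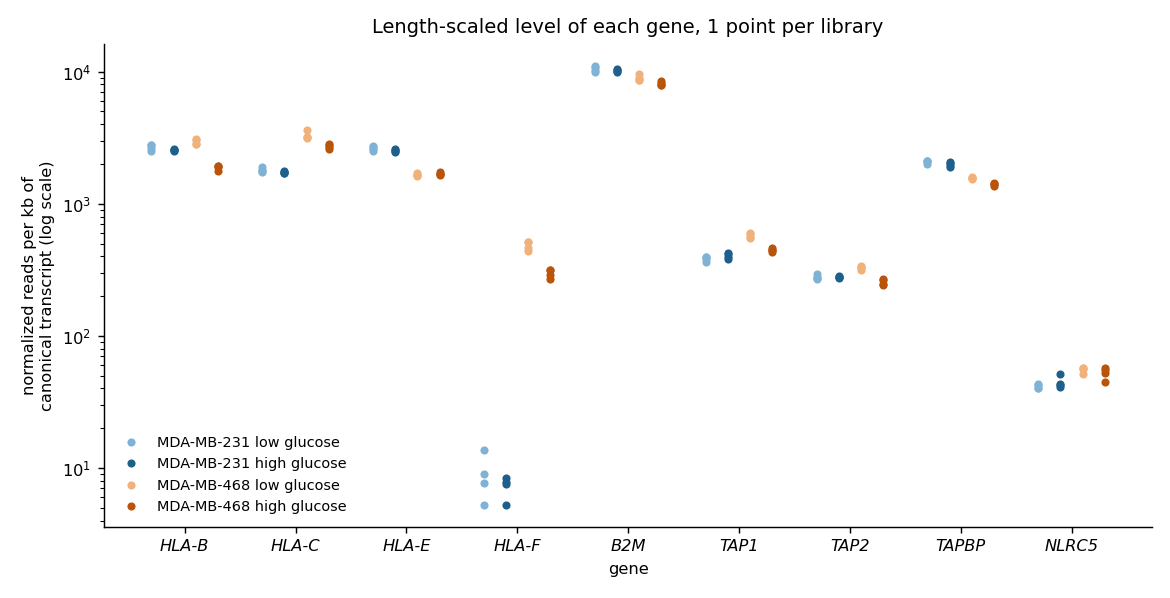
Normalized reads per kb of canonical transcript (vertical axis, log scale) for the 9 genes (horizontal axis), with 1 point per library and a color for each group. B2M is the highest in each group, and HLA-F lies between 5.26 and 13.6 in the MDA-MB-231 libraries but between 269 and 516 in those of MDA-MB-468.

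Most class I presentation genes were lower in high glucose in MDA-MB-468 cells. Of the 9 genes, 7 were downregulated and none was upregulated (limma, adjusted p under 0.05), against 22.7% of the 15757 genes tested that were lower, 24.9% that were higher and 47.6% that passed in either direction. Since the 9 genes were chosen with earlier results of these data known, these shares are given as a description. The 7 genes were HLA-B, HLA-C, HLA-F, B2M, TAP1, TAP2 and TAPBP, and their low- and high-glucose libraries did not overlap. Such separation was seen for 42.5% of all genes tested in this line. The median log2 change was -0.26 over the 9 genes and 0.00 over all genes tested. HLA-E and NLRC5 did not pass the test. In bulk RNA, fewer cells with a transcript and less transcript per cell cannot be told apart.

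**Figure D2:**
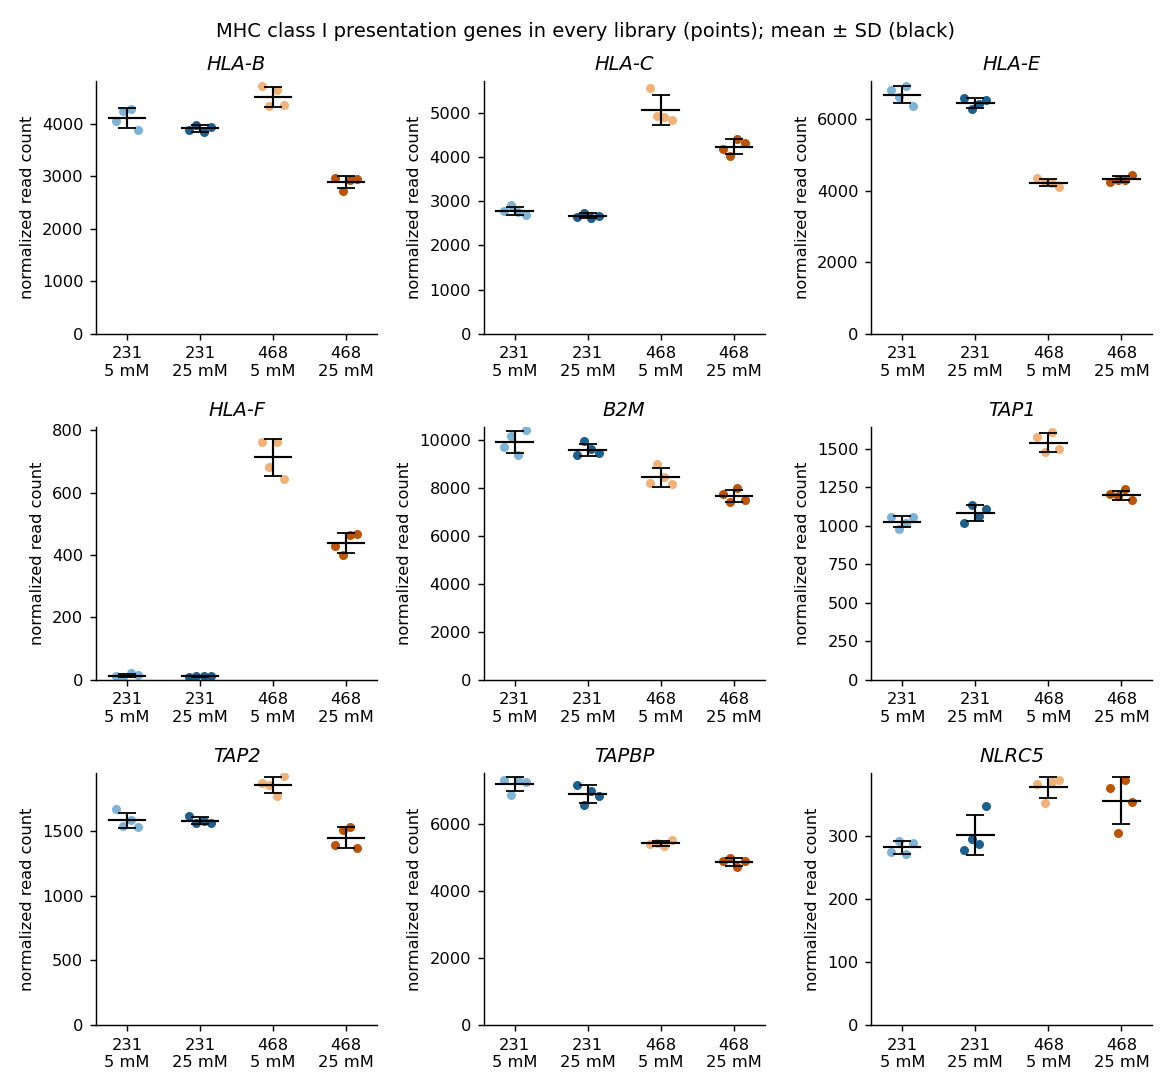
Normalized read count (vertical axes, from 0) of each of the 9 genes in the 4 groups, with 1 point per library and the mean ± SD (n = 4) in black. In MDA-MB-468, 7 genes have all 25 mM libraries below all 5 mM libraries, and the MDA-MB-231 groups overlap for all 9 genes.

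HLA-B and HLA-C encode classical heavy chains, which present peptides to CD8+ T cells. In MDA-MB-468, HLA-B counts were 4717, 4335, 4648 and 4354 in low glucose and 2963, 2727, 2924 and 2949 in high glucose. All high-glucose libraries were well below all low-glucose libraries, with the gap larger than the range within either group. HLA-B fell by 35.9% (log2 change -0.64, SE 0.04, adjusted p = 9.38e-10 by limma). Counts of HLA-C were 5570.4, 4937, 4914 and 4840 in low glucose and 4173, 4021, 4402 and 4320.0 in high glucose. The groups did not overlap, and low-glucose replicate 1 was above the other 3. HLA-C fell by 16.4% (log2 change -0.26, SE 0.04, limma adjusted p = 8.95e-05).

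Of the non-classical heavy chains, HLA-F passed the test and HLA-E did not. HLA-F, which binds receptors on natural killer cells, counted 763, 683, 762 and 645 in low glucose and 428, 399, 464 and 467 in high glucose in MDA-MB-468. These groups were clearly separated, and HLA-F fell by 38.4% (log2 change -0.70, SE 0.07, limma adjusted p = 2.49e-07), the largest fall among the 9 genes. Its antisense partner HLA-F-AS1 averaged 4.53 in low and 4.87 in high glucose in this line. HLA-E, which shows leader peptides of other heavy chains to the natural killer receptor NKG2A, counted 4341, 4233, 4207 and 4104 in low glucose and 4238, 4301, 4297 and 4435 in high glucose. The HLA-E groups overlapped, with a log2 difference of 0.03 (95% interval -0.03 to 0.09, limma adjusted p = 0.378).

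B2M counts in MDA-MB-468 were 8210.1, 9019, 8462 and 8164 in low glucose and 7750.0, 7429, 8009 and 7504 in high glucose. Each high-glucose library was below each low-glucose library, but the nearest pair was close (8009 and 8164). B2M fell by 9.31% (log2 change -0.14, SE 0.03, limma adjusted p = 0.00305), the smallest of the 7 called changes.

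Both transporter subunits were downregulated in MDA-MB-468 by nearly the same amount. TAP1 counted 1574, 1478, 1610.5 and 1497 in low glucose and 1204, 1189.6, 1236 and 1164 in high glucose. TAP2 counted 1869, 1850.3, 1764 and 1919 in low glucose and 1389, 1501, 1528 and 1363 in high glucose. Neither gene had overlapping groups. The log2 change was -0.36 for each, with an SE of 0.04 for both and limma adjusted p-values of 1.15e-06 for TAP1 and 3.61e-06 for TAP2. The gene on the other strand of TAP1, PSMB8-AS1, also fell, from 186 ± 9.02 to 108 ± 14.8 (SD, n = 4, log2 change -0.78, limma adjusted p = 9.83e-06), at a level far below that of TAP1. PSMB9, the other overlapping gene, averaged 272 and 259.2 and did not pass the test. ENSG00000250264, which overlaps TAP2, averaged 82.5 in low and 56.8 in high glucose in this line.

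TAPBP, the gene for tapasin, counted 5401, 5434, 5335 and 5504 in low glucose and 4895, 4990.0, 4699 and 4889 in high glucose in MDA-MB-468. The groups were separate, and TAPBP fell by 10.2% (log2 change -0.15, SE 0.03, limma adjusted p = 0.000262). NLRC5, the transactivator of these genes, counted 381, 351, 384 and 388 in low glucose and 375, 304, 388 and 352 in high glucose. The 2 groups overlapped almost fully, with a log2 difference of -0.09 (95% interval -0.24 to 0.07, limma adjusted p = 0.343).

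Markers of other cell types were read in the same libraries. Of 4 leukocyte markers, 2 had values, and their summed count in MDA-MB-468 was between 87.4 and 122 in low glucose and between 179 and 238 in high glucose. CD14 rose from a mean of 94.2 to 208 and PTPRC, the pan-leukocyte gene, fell from 8.77 to 3.12. Of 4 fibroblast and endothelial markers, 3 had values, 2 of them at or below 3 reads, and the summed count was between 236 and 269 in low and between 277 and 337 in high glucose. Their part in the fall of the class I genes was not tested.

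MDA-MB-231 cells gave a different picture. None of the 9 genes passed the test (limma, adjusted p under 0.05), against 15.1% of the 14884 genes tested, 9.37% lower and 5.71% higher. All 9 genes had overlapping groups, where 18.7% of the genes tested in this line had groups that did not overlap. At an unadjusted p under 0.05, 4031 genes passed and none of the 9 did. The median log2 change of the 9 genes was -0.05. The tests with edgeR and DESeq2 on the recovered reads also called none of the 9.

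For HLA-B in MDA-MB-231, counts were 4049, 4249, 4281 and 3880.1 in low glucose and 3889, 3986, 3845 and 3945 in high glucose. The high-glucose values lay within or close to the range of the low-glucose ones, and the log2 difference was -0.07 (95% interval -0.14 to 0.00, limma adjusted p = 0.199). Without low-glucose replicate 4 the difference was -0.10 with a limma adjusted p of 0.0257, and with all libraries and the transcript length correction it was -0.10 with an adjusted p of 0.0260.

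HLA-C counted 2779.5, 2907, 2751 and 2677 in low glucose and 2649.6, 2743, 2624 and 2675 in high glucose, with overlapping groups and a log2 difference of -0.06 (limma adjusted p = 0.311). HLA-E counted 6799, 6611, 6919.6 and 6367 in low glucose and 6599, 6274, 6415 and 6521 in high glucose, again overlapping, at -0.05 (limma adjusted p = 0.349). HLA-F was low throughout, at 11.4, 7.83, 20.1 and 13.4 in low glucose and 7.78, 11.6, 11.1 and 12.4 in high glucose. With so few reads, the 95% interval of the HLA-F log2 difference ran from -0.94 to 0.49, and a change of the size seen in MDA-MB-468 was not detectable at this depth.

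B2M ranged from 9396 to 10415 in low glucose and from 9384 to 9958 in high glucose, and TAPBP from 6869 to 7313 and from 6545 to 7168. Neither light chain nor tapasin separated by glucose, with log2 differences of -0.05 for B2M and -0.06 for TAPBP (limma adjusted p = 0.410 and 0.241). TAP1 counted 1054, 977, 1019 and 1056 in low glucose and 1017, 1137, 1061 and 1111 in high glucose, at a log2 difference of 0.07 (95% interval -0.02 to 0.17, limma adjusted p = 0.312). TAP2 ranged from 1531 to 1663 and from 1558 to 1613, with a log2 difference of 0.00 (95% interval -0.08 to 0.08). NLRC5 counted 274, 292, 272 and 289 in low glucose and 276, 295, 286 and 346 in high glucose, where replicate 4 stood above the rest, at a log2 difference of 0.09 (limma adjusted p = 0.482).

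**Figure D3:**
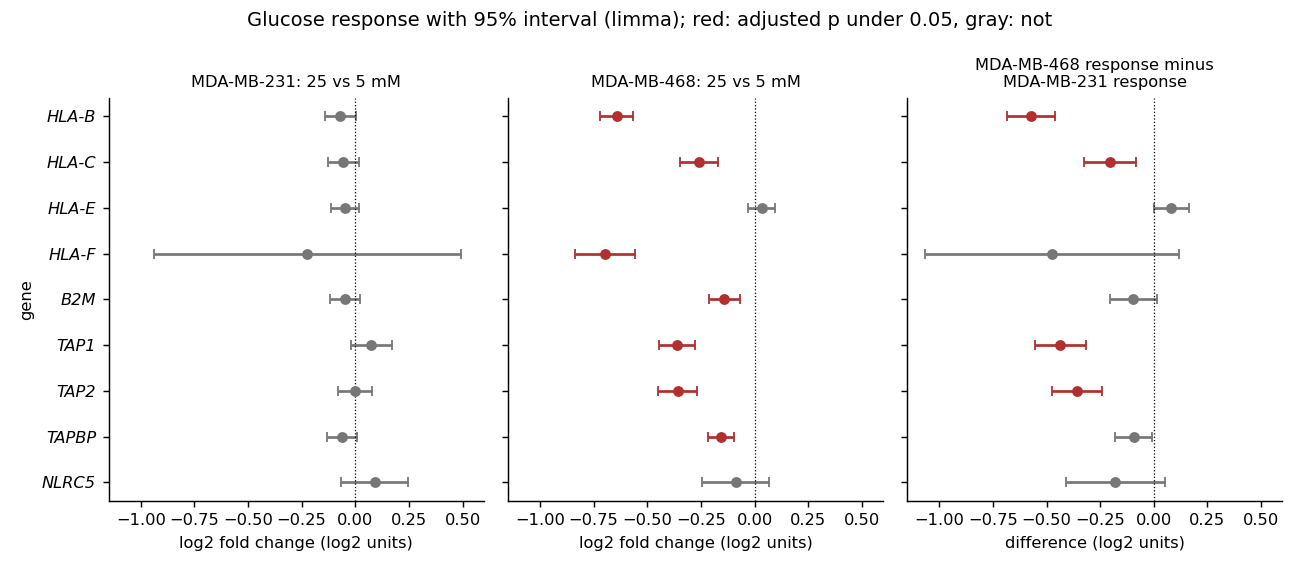
Log2 fold change with its 95% interval from limma (horizontal axes, log2 units) for the 9 genes (vertical axis) for MDA-MB-231 (left), MDA-MB-468 (middle) and for the difference of both responses (right), where red marks an adjusted p under 0.05. In the middle panel 7 genes are red and below 0, in the left panel none is red, and on the right HLA-B, HLA-C, TAP1 and TAP2 are red.

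Whether the glucose response differed between the lines was tested directly as an interaction over all 16 libraries. It passed for 4 of the 9 genes, all with the lower response in MDA-MB-468, against 30.9% of the 17115 genes tested in either direction and 13.9% with the lower response in MDA-MB-468. The difference for HLA-B, as the log2 response in MDA-MB-468 minus that in MDA-MB-231, was -0.57 (95% interval -0.68 to -0.46, limma adjusted p = 4.18e-07). It was -0.44 for TAP1 (limma adjusted p = 1.73e-05), -0.36 for TAP2 (adjusted p = 0.000105) and -0.20 for HLA-C (adjusted p = 0.0127). These 4 genes passed under all 27 alternatives tried. For B2M, HLA-E, HLA-F, TAPBP and NLRC5 the difference did not pass, at -0.09, 0.08, -0.47, -0.09 and -0.18 (limma adjusted p = 0.191, 0.128, 0.223, 0.0955 and 0.245). HLA-F had a wide interval of -1.07 to 0.12, which goes with its few reads in MDA-MB-231. Leaving out a single MDA-MB-231 library brought 3 of these past the threshold. Without low-glucose replicate 3 the difference for HLA-F was -0.69 (adjusted p = 0.0296), without low-glucose replicate 4 that for HLA-E was 0.10 (adjusted p = 0.0328), and without high-glucose replicate 2 that for TAPBP was -0.12 (adjusted p = 0.0295). Quantile normalization also brought B2M (adjusted p = 0.0143) and TAPBP (adjusted p = 0.00577) past it.

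The 2 lines were then compared at equal glucose. In low glucose all 9 genes differed between the lines, 6 higher and 3 lower in MDA-MB-468, against 85.4% of all genes tested, 45% higher and 40.4% lower. HLA-F had by far the largest difference of the 9, from a mean of 13.2 ± 5.16 in MDA-MB-231 to 713 ± 59.0 in MDA-MB-468 (SD, n = 4), a 52.8-fold higher level on the log2(value + 1) scale (95% interval 39.5 to 70.5, limma adjusted p = 1.47e-14). HLA-C was higher by 0.86 and TAP1 by 0.58 on the log2 scale in MDA-MB-468 (limma adjusted p = 1.25e-12 and 2.42e-10). NLRC5 was higher by 0.42 and TAP2 by 0.23 on the log2 scale (limma adjusted p = 9.07e-05 and 3.42e-05). HLA-E, TAPBP and B2M were lower in MDA-MB-468, by log2 differences of -0.66, -0.41 and -0.23. The B2M difference shrank to -0.01 under quantile normalization (limma adjusted p = 0.832). HLA-B was higher by 0.13 (limma adjusted p = 0.00291), a direction that turned to -0.06 after a correction for transcript length (adjusted p = 0.0840).

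In high glucose all 9 genes again differed, against 85.2% of all genes tested, with 5 lower in MDA-MB-468 against 40.6%. HLA-B and TAP2 were now on the other side. HLA-B, higher in MDA-MB-468 in low glucose, was lower there in high glucose by a log2 difference of -0.44 (limma adjusted p = 4.53e-09), with MDA-MB-468 libraries at 2727 to 2963 and MDA-MB-231 libraries at 3845 to 3986. TAP2 was lower by -0.13 (adjusted p = 0.00653), although neither quantile normalization nor the length correction kept this call (adjusted p = 0.204 and 0.0820). TAP1 stood 0.15 higher (limma adjusted p = 0.00235, or 0.0743 after the length correction), compared with 0.58 in low glucose. HLA-C and HLA-F remained higher, by 0.66 and 5.25, and NLRC5 by 0.24, while HLA-E, TAPBP and B2M were lower at -0.58, -0.50 and -0.32 on the log2 scale.

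Because the heavy chains did not move together, their makeup within each library was examined on the per-kb scale, as a description. The HLA-B to HLA-C ratio averaged 1.49 ± 0.0505 and 1.47 ± 0.00914 in low and high glucose in MDA-MB-231 (SD, n = 4). In MDA-MB-468 it was 0.896 ± 0.0418 in low glucose and 0.686 ± 0.0192 in high glucose, where the highest high-glucose library (0.713) was below the lowest low-glucose library (0.850). HLA-E made up 36.8% and 37.1% of the summed HLA-B, HLA-C, HLA-E and HLA-F reads per kb in MDA-MB-231. Its share in MDA-MB-468 went from 19.8% ± 0.540 in low glucose to 25.6% ± 0.729 in high glucose, as HLA-B went from 35.1% to 28.4%. The summed heavy chain level was 8362 ± 390.0 reads per kb in MDA-MB-468 in low glucose and 6616 ± 203 in high glucose, and 7109 ± 239 and 6823 ± 62.7 in MDA-MB-231. Relative to B2M, the sum was 0.934 in low and 0.813 in high glucose in MDA-MB-468, against 0.677 and 0.670 in MDA-MB-231. The TAP1 to TAP2 ratio was alike in both glucose groups of MDA-MB-468, at 1.75 ± 0.124 and 1.75 ± 0.0742.

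**Figure D4:**
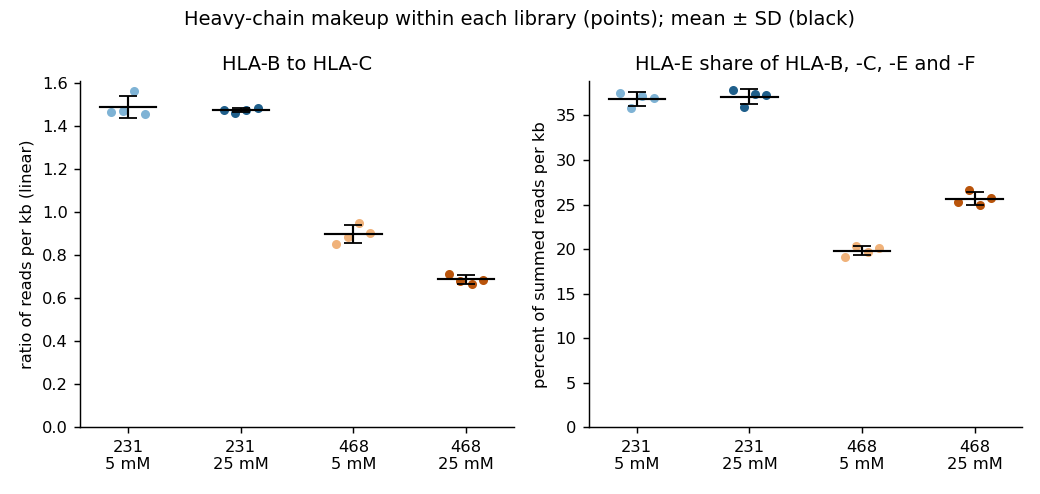
Ratio of HLA-B to HLA-C (left, linear axis from 0) and HLA-E as a percent of the summed HLA-B, HLA-C, HLA-E and HLA-F level (right), both from reads per kb, in the 4 groups with 1 point per library and the mean ± SD (n = 4). Within MDA-MB-468 the ratio is lower and the HLA-E share higher in all 4 high-glucose libraries, and the MDA-MB-231 groups overlap in both panels.

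The remaining parts of the pathway were read from lists of related genes. The immunoproteasome subunits PSMB8, PSMB9 and PSMB10, which replace the standard catalytic subunits and favor class I peptides, and the activator genes PSME1 and PSME2 were not called: 0 of 5 passed in either line by limma. Over all genes tested, 47.6% passed in MDA-MB-468 and 15.1% in MDA-MB-231. In MDA-MB-231, 0 of 5 lies near that share. PSMB8 counted 2193, 2085, 2157 and 2095 in low glucose and 2082, 1963, 2099 and 2165 in high glucose in MDA-MB-468, with overlapping groups. The log2 differences in this line were -0.04 for PSMB8, -0.07 for PSMB9 and -0.16 for PSMB10 (limma adjusted p = 0.407, 0.447 and 0.135). Without high-glucose replicate 3, PSMB10 passed at -0.23 (adjusted p = 0.0297), and with the transcript length correction both PSMB10 (-0.25, adjusted p = 0.00957) and PSMB8 (-0.12, adjusted p = 0.00238) passed. In MDA-MB-231 the log2 differences were 0.06, 0.24 and 0.03 (limma adjusted p = 0.488, 0.181 and 0.861). In low glucose PSMB8 was 2.82-fold and PSMB9 2.14-fold higher in MDA-MB-468 than in MDA-MB-231, and PSMB10 was higher by 0.26 log2 units, which turned to -0.02 with the transcript length correction.

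Among 6 peptide-trimming genes, THOP1, a cytosolic peptidase that can destroy class I peptides, moved in opposite directions. It rose in MDA-MB-468 from 421, 352, 396 and 413 to 653, 618, 681 and 722 (log2 change 0.76, limma adjusted p = 7.63e-08), and fell in MDA-MB-231 from a mean of 719 to 584 (-0.30, limma adjusted p = 0.000848). ERAP1, which trims peptides in the endoplasmic reticulum, and NPEPPS fell in MDA-MB-468 by 0.17 and 0.13 on the log2 scale. Of 5 folding and editing genes, CALR and PDIA3, members of the peptide-loading complex, rose in MDA-MB-468 by 0.23 and 0.13 and UGGT1 fell by 0.24. In MDA-MB-231, 0 of 5 were called. Over all genes tested, 47.6% passed in MDA-MB-468 and 15.1% in MDA-MB-231.

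Of 10 interferon signaling genes in MDA-MB-468, 2 rose and 3 fell, a share near that of all genes tested in this line (24.9% higher, 22.7% lower). IRF1, a transcription factor that acts on ISREs, counted 554, 592, 593 and 612 in low glucose and 405, 421, 439.5 and 417 in high glucose. All high-glucose libraries were lower, and IRF1 fell by 28.3% (log2 change -0.48, limma adjusted p = 1.05e-06). In MDA-MB-231, IRF1 gave 0.09 (limma adjusted p = 0.250), and the interaction was -0.57 (adjusted p = 2.25e-06). The interferon-gamma receptor and kinase genes went both ways in MDA-MB-468, with JAK2 and IFNGR2 up by 0.51 and 0.40 and IFNGR1 down at -0.26. SOCS1, a feedback inhibitor of JAK signaling, fell by 0.65 on the log2 scale. In MDA-MB-231, 2 of 10 rose, against 5.71% of all genes tested in this line. They were IRF9, by 0.23, and STAT2, by 0.17 log2 units (limma adjusted p = 0.0161 and 0.0134). IRF9 did not pass without high-glucose replicate 3 (adjusted p = 0.0656), nor STAT2 without low-glucose replicate 1 (adjusted p = 0.0537), and neither passed without variance moderation (adjusted p = 0.0828 and 0.0781). IRF1 did not differ detectably between the lines in low glucose (log2 difference 0.02, 95% interval -0.07 to 0.11, limma adjusted p = 0.642), whereas IFNGR1 was higher by 2.18 log2 units in MDA-MB-468.

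Of the 8 genes for RFX, CREB/ATF and NF-Y proteins, 4 rose and 2 fell in MDA-MB-468, where 47.6% of all genes tested passed in either direction (24.9% higher and 22.7% lower). NFYA rose by 0.34, CREB1 by 0.18, NFYC by 0.13 and RFX5 by 0.12, while ATF1 fell by 0.39 and NFYB by 0.14 on the log2 scale. RFX5, a subunit of the RFX complex on which NLRC5 depends, had a limma adjusted p of 0.0176 that did not hold without low-glucose replicate 4 (0.0572) or high-glucose replicate 3 (0.0623). NFYB also fell in MDA-MB-231 by 0.34, and RFX5 did not pass there (-0.13, limma adjusted p = 0.0558), although it did without high-glucose replicate 4 (-0.16, adjusted p = 0.0277). RFX5 was lower in MDA-MB-468 than in MDA-MB-231 in low glucose (-0.37, limma adjusted p = 4.19e-08), and RFXAP, another RFX subunit, was higher by 2.31. The 3 core genes of PRC2, a silencing complex that can repress class I genes, all fell in MDA-MB-231. Their log2 changes were -0.40 for EZH2, -0.22 for EED and -0.14 for SUZ12, and 9.37% of all genes tested were lower in this line. EED alone passed in MDA-MB-468 (-0.14), where 22.7% of all genes tested were lower.

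Of the genes that control turnover of surface class I molecules, 0 of 6 passed in MDA-MB-231, where 15.1% of all genes tested passed. For MDA-MB-468 the share of all genes tested was 47.6%, and 1 of 5 turnover genes passed, the ubiquitin ligase gene WWP2 at -0.23. Of 10 tested class I-like genes and NKG2D ligands, which mark stressed cells for natural killer cells, none passed in MDA-MB-231. In MDA-MB-468 MR1 rose by 0.26, MICB fell by 0.22 and ULBP2 fell by 0.70, from a mean of 135 to 83.8 (limma adjusted p = 0.000396). The other 7 of the 10 did not pass there, where 24.9% of all genes tested were higher and 22.7% lower. ULBP1 was listed at 0 in all 4 MDA-MB-231 low-glucose libraries and averaged 154 ± 21.4 in MDA-MB-468, at least 53.5-fold higher with the floor set at 3 reads per library. The plot by list shows each gene and the list medians.

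**Figure D5:**
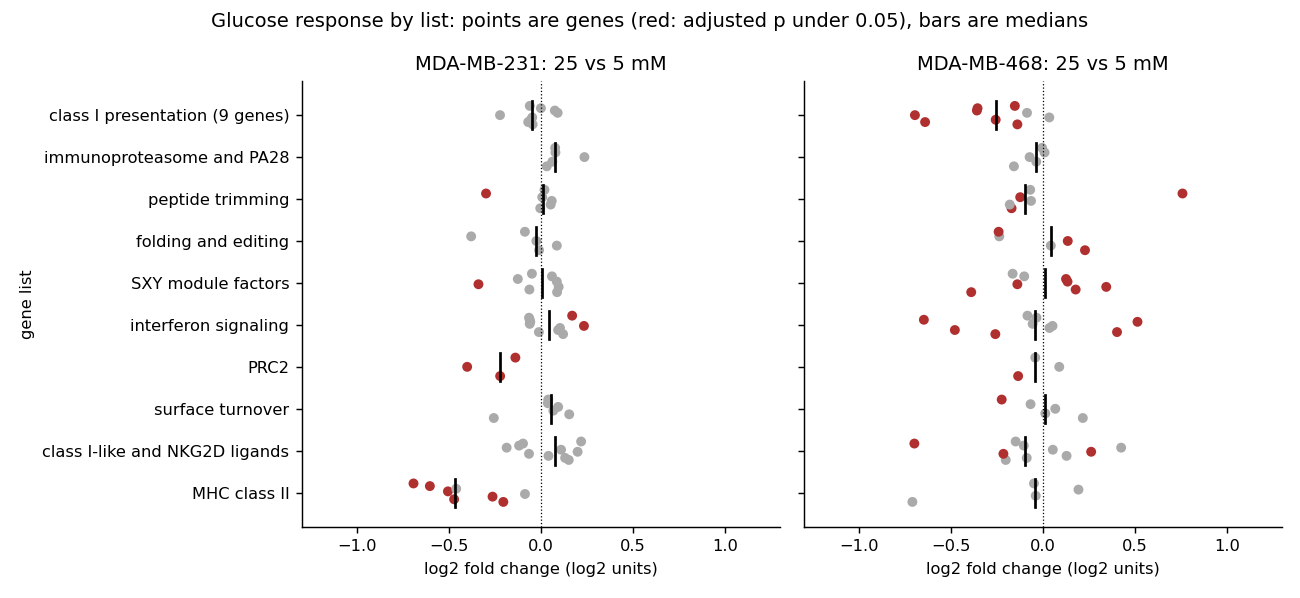
Log2 fold change of high against low glucose (horizontal axes, log2 units) for the genes of each list (vertical axis) in MDA-MB-231 (left) and MDA-MB-468 (right), where points are genes, red points passed the limma test and bars are list medians. The 9 class I genes have a median of -0.26 in MDA-MB-468 against -0.05 in MDA-MB-231. On the right the immunoproteasome list has no red point, where 47.6% of all genes tested passed. On the left 15.1% of all genes tested passed.

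The neighbours of these genes on chromosome 6 were counted for comparison. Between HLA-F and TAPBP, 117 other genes were tested in MDA-MB-468, of which 29 were lower and 23 higher in high glucose, that is 24.8% lower against 22.7% of all genes. Their median log2 change was -0.05, and that of all genes 0.00. In MDA-MB-231, 13 of 116 neighbours were lower and 8 higher, that is 11.2% lower against 9.37% of all genes.

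Finally, genes with a profile like that of the class I genes were sought. Each gene was centred within its line, and its correlation was taken over the 16 libraries with the mean profile of the 8 members expressed in both lines. Among 9873 genes the most alike were GPR137B (r = 0.983), FDPS (0.973), CDKN2D (0.966), CNST (0.961) and RND3 (0.960). These 16 points share 4 group means, so the values describe a shared fall in MDA-MB-468 and carry no test. GPR137B averaged 240.0 in low and 192 in high glucose in MDA-MB-468, and FDPS, an enzyme gene of the mevalonate pathway, 13773 and 10447. CDKN2D, which encodes an inhibitor of CDK4 and CDK6, averaged 1022.5 and 486, CNST 624 and 398, and RND3 2491 and 1747. IRF1 came 248th with r = 0.881, while PSMB10 (0.535), PSMB8 (0.256), PSMB9 (0.132) and RFX5 (-0.374) were less alike. Among the members themselves, r with the profile was 0.974 for HLA-B, 0.931 for HLA-C, 0.899 for TAP2, 0.878 for TAP1, 0.763 for TAPBP, 0.700 for B2M, 0.388 for NLRC5 and -0.115 for HLA-E, each of which is part of the profile it was compared with.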

How the data were processed

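RNA from 16 cultures (MDA-MB-231 and MDA-MB-468, 5 or 25 mM glucose for 48 h, 4 replicates each) was sequenced on an Illumina instrument. Per the study's methods for its RNA sequencing, reads were trimmed with Trimmomatic and aligned to hg19 with TopHat and Ensembl annotation, while the submitters' processing notes name hg38 and edgeR. The counting program and its use of strand are not given in the sources used here. The deposited table holds a signal per gene that the authors made by dividing read counts by 1 size factor per library. Whole reads were recovered from it, since 100% of values came out whole (tolerance 0.001) when divided by the step of their library. Of 18332 gene IDs, 16633 had a symbol and 17418 a transcript length. No column of the table was left out.

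Testing was limited to genes that reached 0.5 CPM in 2 or more fitted libraries and was done on log2(value + 1) with limma 3.58.1 (R 4.3.3, lmFit and eBayes with a trend, two-sided, Benjamini-Hochberg over all genes tested, threshold 0.05). Fold changes on this scale understate the change of low genes. Each line was fitted alone for its glucose response, and all 16 libraries together for the interaction and the comparison of lines. Scripts were tested on simulated data. On the recovered reads, the quasi-likelihood test of edgeR 4.0.16 called 2244 genes for MDA-MB-231 and 7484 for MDA-MB-468. DESeq2 1.42.0, other pseudocounts, filters and normalizations, a replicate block, a transcript length correction and leaving out each replicate were further alternatives. Replicates of a group differed by more than sampling noise in every pair, with a chi-square per gene of 2.03 to 5.20. The highest values, 4.96 and 5.20, both involved MDA-MB-231 low-glucose replicate 4. Without that library 2389 genes passed in MDA-MB-231, and without any other library of this line 1629 to 1894 did.

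The genes named are the 9 members, IRF1, RFX5, PSMB8, PSMB9, PSMB10 and 1 gene not reported here, the 3 largest rises and 3 largest falls among the related lists in each glucose response and between the lines (5 CPM or more on average in the group with more), and the 5 genes most alike in profile. Other list genes and overlapping genes were named after their values were seen. The members and lists were chosen with earlier results of these data known. Intervals are 95%, and floors cover counting error only.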

Additional observations from a re-analysis of the deposited data

Results flagged for a closer look

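In groups of 4 libraries, Dixon's test set 1 library apart in 4 of 106 gene and group pairs, and chance gives about 1 in 20. These were HLA-B in MDA-MB-468 high glucose replicate 2 (normalized read count 2727), HLA-C in MDA-MB-468 low glucose replicate 1 (5570.4), IRF9 in MDA-MB-231 high glucose replicate 3 (564) and RFXAP in MDA-MB-231 low glucose replicate 2 (20.5).

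The glucose response differed between the lines by the limma interaction test (adjusted p under 0.05) for 16 of the 29 named genes. Over all genes tested the share was 30.9%. Part of the named genes were picked for large changes in these same data, so the count cannot be read as an excess over that share. Of these 16, CD74 (-1.11), HLA-DPA1 (1.32) and HLA-DRB1 (0.69) averaged at or under 3 reads per library in MDA-MB-468 and did not pass with edgeR or DESeq2 on the recovered reads, which leaves 13. Given as the log2 response in MDA-MB-468 minus that in MDA-MB-231, the difference was -0.57 for HLA-B, -0.20 for HLA-C, -0.44 for TAP1 and -0.36 for TAP2. Outside the 9 class I genes it was -0.57 for IRF1, -0.25 for STAT2, -0.60 for ULBP2, -0.48 for ATF1 and -0.38 for IFNGR1. It was above 0 for THOP1 at 1.06, JAK2 at 0.57, IFNGR2 at 0.41 and RFX5 at 0.25. What sets these differences between the 2 lines was not tested.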

How the results depend on the processing

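The 7 class I genes called in MDA-MB-468 passed under all 19 alternatives, and the 4 interaction calls under all 27. In MDA-MB-231, 2245 genes passed in the reported fit (850 higher, 1395 lower), 1297 without variance moderation, and 2141 with quantile normalization (1027 higher, 1114 lower). There, 0 of the 9 class I genes passed, 1 with the transcript length correction, and 0 to 1 when replicates were left out in turn. The gene was HLA-B each time. Between the lines in low glucose, the transcript length correction changed the sign of HLA-B (-0.0551) and PSMB10 (-0.0197). Both calls were lost (limma adjusted p = 0.0840 and 0.842), so no opposite difference was shown. In high glucose PSMB10 was not called in the reported fit (0.07, limma adjusted p = 0.533) and passed with this correction at -0.209 (adjusted p = 0.0404). A further 33 values changed sign without a call in either fit. DESeq2 gave no adjusted p for 2 values.

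Replicate numbers did not pair the libraries. Deviations of same-numbered libraries correlated at -0.02 on average for MDA-MB-231 and 0.02 for MDA-MB-468. A replicate block left 1624 genes called in MDA-MB-231, 7383 in MDA-MB-468, 4774 in the interaction, and 14567 and 14537 between the lines in low and high glucose. The interaction for TAPBP then passed (adjusted p = 0.0482). Depth limits HLA-F in MDA-MB-231 and those class II genes that averaged at or under 3 reads per library in MDA-MB-468.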

Other observations

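MHC class II genes, which present peptides to CD4+ T cells and share the RFX, CREB/ATF and NF-Y module with class I genes, were mostly lower in high glucose in MDA-MB-231, where no class I gene passed the test. Of 8 tested genes, 6 were downregulated by high glucose and none was upregulated (limma, adjusted p under 0.05), against 9.37% lower and 5.71% higher among all genes tested in this line, with a list median of -0.47 on the log2 scale. HLA-DRA counted 1045, 979.5, 907 and 953 in low glucose and 609, 652, 632 and 658 in high glucose, without overlap (log2 change -0.60, limma adjusted p = 2.68e-07). HLA-DRB1 fell by 0.69 and HLA-DPA1 by 0.51 on the log2 scale. CD74, the invariant chain gene, fell by 0.21, and its call was lost without variance moderation (adjusted p = 0.123). CIITA, the class II transactivator and a relative of NLRC5, fell from 121 ± 12.4 to 86.5 ± 2.85 (SD, n = 4, log2 change -0.47, limma adjusted p = 0.00512), and was named after its values were seen, as were HLA-DMA (-0.26) and the genes that did not pass, HLA-DPB1 (-0.46, limma adjusted p = 0.0832) and HLA-DMB (-0.09, limma adjusted p = 0.725).

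In MDA-MB-468, 0 of 4 class II genes with enough reads to be tested passed, against 47.6% of all genes tested. In low glucose CD74, HLA-DRA, HLA-DRB1 and HLA-DPA1 averaged at or under the floor of 3 reads per library in this line. Against that floor CD74 was at least 2229-fold lower than in MDA-MB-231, HLA-DRA at least 353-fold, HLA-DRB1 at least 89.1-fold and HLA-DPA1 at least 87.0-fold. A class II response to glucose in MDA-MB-468 was not detectable at this depth for these 4 genes.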
